A study of Mus musculus with 4 samples.

Results

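The circadian clock genes were followed across the cell types of mouse pancreatic islets and across 4 single-cell RNA-seq libraries. The members were 10 of the 32285 genes in the count matrices, taken by symbol: Nr1d1, Nr1d2, Dbp, Tef, Per1, Per2, Per3, Arntl, Ciart and Bhlhe41. All 10 were present in every library. The libraries came from male mice of a C57BL6/N background, either littermates with the wildtype allele (Pax4 WT) or homozygous knock-in mice whose endogenous Pax4 alleles carry an arginine-to-histidine substitution in every cell of the body (Pax4 HH). Islets of each genotype were taken at 12 weeks on a standard chow diet (SCD) or at 16 weeks after 4 weeks on a high-fat diet (HFD). Each of the 4 groups was 1 library from the pooled islets of a few mice, so no group had a replicate and no test between libraries was made. Diet and age cannot be told apart, the counts do not show the Pax4 allele, and the hour of islet collection was not given in the labels.

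The mammalian clock is a transcriptional feedback loop that runs in nearly every cell. ARNTL (BMAL1) and CLOCK bind E-boxes and drive the Per, Cry, Nr1d1, Nr1d2, Dbp, Tef, Ciart and Bhlhe41 genes, PER, CIART (CHRONO) and BHLHE41 (DEC2) repress that activity, NR1D1 and NR1D2 (REV-ERBα and REV-ERBβ) repress Arntl, and DBP and TEF activate genes with D-boxes. In most mouse tissues Nr1d1, Dbp, Tef, Per3 and Ciart transcripts peak in the light phase or at dusk and Arntl transcripts in the late night, so the balance between them follows clock time, and β cell clocks are known for timing insulin secretion.

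The members' promoters were searched for clock motifs, because several members were low in the same libraries. RefSeq promoters (GRCm38.p6, 250 bases before to 50 after the start) were found for 9 of the 10 members, in 12 entries. An E-box (CACGTG, which is its own reverse complement) lay in promoters of 4 members, Tef, Per1, Ciart and Bhlhe41, which is 5 of the 12 entries, against 7.15% of all 32851 promoter entries. The 3 shown here, each the 250 bases before the start on the gene's strand (minus for all 3), were chosen for the motifs they hold before the start, with the motif letters in capitals.
Nr1d1, chr11:98775378-98775627: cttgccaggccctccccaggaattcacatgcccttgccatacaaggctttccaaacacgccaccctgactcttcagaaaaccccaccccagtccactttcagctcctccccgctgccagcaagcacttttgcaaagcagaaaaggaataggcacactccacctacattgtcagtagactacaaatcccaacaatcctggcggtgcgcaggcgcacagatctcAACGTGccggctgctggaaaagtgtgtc
Per3, chr4:151044666-151044915: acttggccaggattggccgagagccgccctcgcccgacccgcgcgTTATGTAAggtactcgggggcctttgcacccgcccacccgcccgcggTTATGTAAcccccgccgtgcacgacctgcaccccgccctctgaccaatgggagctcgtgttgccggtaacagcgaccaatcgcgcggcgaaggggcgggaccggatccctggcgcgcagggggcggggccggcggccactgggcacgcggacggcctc
Ciart, chr3:95882229-95882478: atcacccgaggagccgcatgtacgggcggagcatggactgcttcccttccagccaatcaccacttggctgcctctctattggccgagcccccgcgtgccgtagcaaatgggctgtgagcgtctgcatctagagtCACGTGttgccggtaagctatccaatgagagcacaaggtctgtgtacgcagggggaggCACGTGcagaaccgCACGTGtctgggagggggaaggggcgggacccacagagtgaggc
The capitals in Ciart mark 3 E-boxes, the first letters of which are 116, 58 and 44 bases before the start, and its last 23 bases lie inside the GENCODE gene. In Nr1d1 they mark AACGTG, the reverse complement of CACGTT, 28 bases before the start, a motif held on either strand by 4.68% of promoters. In Per3 they mark a pair of D-boxes (TTATGTAA) at 205 and 158 bases, a motif held on either strand by 0.938% of promoters. The nuclear receptor half-site TAGGTCA, the fourth motif searched, was found in 1 of the Arntl entries, 30 bases after the start, and in no other member's, and 2.61% of promoters hold it on either strand. A match is a description of letters and not of binding.

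The 4 libraries held 68011082 to 104810105 UMIs (unique molecular identifiers, each standing for 1 captured transcript) over 4665 to 7123 barcodes, of which 38.3% to 67.8% passed the cell filter, the lowest share in Pax4 WT HFD. Libraries shared 6 to 11 barcodes per pair. After doublets were removed 12404 cells remained, and clusters were named from marker lists. All of the 8 β cell markers (Ins1, Ins2, Mafa and others) were detected at the naming level in the β-like clusters, apart from a cluster of 483 cells with 7 of 8, and the α-like clusters carried all 6 of theirs. Cells in the order Pax4 WT SCD, Pax4 HH SCD, Pax4 WT HFD and Pax4 HH HFD numbered 2012, 1957, 1123 and 2764 for β-like, 409, 478, 287 and 497 for α-like, 332, 349, 160 and 297 for δ-like, 110, 130, 67 and 170 for PP-like, and 127, 89, 146 and 192 for endothelial-like. Levels are given as CPM, the UMIs of a gene for every 1000000 UMIs of a class in a library, and values below are in that library order. The intervals are exact 95% intervals that cover counting error only.

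The first question was how the members differ between cell types. Class sums of the 4 libraries were tested against β-like cells in edgeR's quasi-likelihood test with a term for the library, with Benjamini-Hochberg adjustment over 12907 genes. The libraries served as 4 replicates of a cell type. The log2 fold changes here are on the TMM scale, which scales for composition, because hormone transcripts fill much of a β cell's UMIs. Plain CPM places the ratios to β-like cells higher by 0.61 in α-like, 0.99 in δ-like and 1.14 in endothelial-like cells, so directions of small differences depend on the scaling.

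Per3, a member of the period family, had the largest difference between δ-like and β-like cells of the 10. Its level was 53.8, 71.2, 79.7 and 70.9 CPM there, against 8.19, 7.57, 7.86 and 3.30 CPM in β-like cells and 16.1, 17.1, 15.3 and 15.4 CPM in α-like cells. The order δ-like, α-like and β-like held in all 4 libraries. Per3 was higher by 2.41 on the log2 scale in δ-like cells (SE 0.18, edgeR adjusted p = 3.7e-09) and by 0.69 in α-like cells (SE 0.20, edgeR adjusted p = 0.0070), and lower by a log2 fold change of -2.08 in endothelial-like cells (SE 0.49, edgeR adjusted p = 0.0010), where 1 to 5 UMIs were found per library.

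Nr1d1, the repressor of Arntl, was ordered δ-like, β-like and α-like in all 4 libraries. It read 146, 102, 37.3 and 34.7 CPM in δ-like, 48.7, 45.2, 11.6 and 6.95 in β-like and 11.8, 16.4, 4.04 and 4.03 in α-like cells. It was lower by a log2 fold change of -2.12 in α-like cells (SE 0.18, edgeR adjusted p = 2.0e-08) and higher by 0.67 in δ-like cells (SE 0.14, edgeR adjusted p = 0.00076). Its paralog Nr1d2 had log2 fold changes of -0.76 and 0.63, both past the threshold. The activators Dbp and Tef were higher in δ-like cells by 0.78 and 0.83, and in endothelial-like cells they were lower, with log2 fold changes of -3.03 and -1.29. Endothelial-like cells held only 1 to 9 Dbp UMIs per library.

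In all, 6 of 10 members passed in α-like cells (1 higher, 5 lower), 7 in δ-like cells (5 higher, 2 lower) and 7 in endothelial-like cells (0 higher, 7 lower). The shares of all tested genes that passed were 25.8% higher and 28.4% lower for α-like, 26.7% and 27.5% for δ-like and 33.6% and 41.2% for endothelial-like cells, so passing this test was common. Besides Nr1d1 and Nr1d2, the lower members in α-like cells were Ciart (log2 fold change -1.27), Tef (-0.40, but 0.22 on plain CPM) and Bhlhe41 (-0.34, but 0.28 on plain CPM). The lower members in δ-like cells were Per1 (-0.36, but 0.61 on plain CPM) and Bhlhe41 (-0.38, but 0.59 on plain CPM). The others lower in endothelial-like cells were Bhlhe41 (-2.97), Per2 (-1.90), Nr1d2 (-0.77, but 0.23 on plain CPM) and Nr1d1 (-0.48, but 0.74 on plain CPM). Directions on the scales were opposite for 11 of the 30 member and class pairs in all. Endothelial Nr1d1 was below β-like cells in the SCD libraries (-0.92 and -0.80) and not in the HFD libraries (0.05 and 0.09), and it passed in 4 of 12 alternative fits. Tef in α-like cells and Per1 in δ-like cells passed in 7 of 12 each (highest edgeR adjusted p = 0.10 and 0.19), whereas Nr1d1 in α-like cells and Per3 in δ-like cells passed in 12 of 12. Arntl, the activator of the loop, had log2 fold changes of 0.12, 0.05 and 0.40 in α-like, δ-like and endothelial-like cells, and none passed (edgeR adjusted p = 0.59, 0.85 and 0.12).

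**Figure D1:**
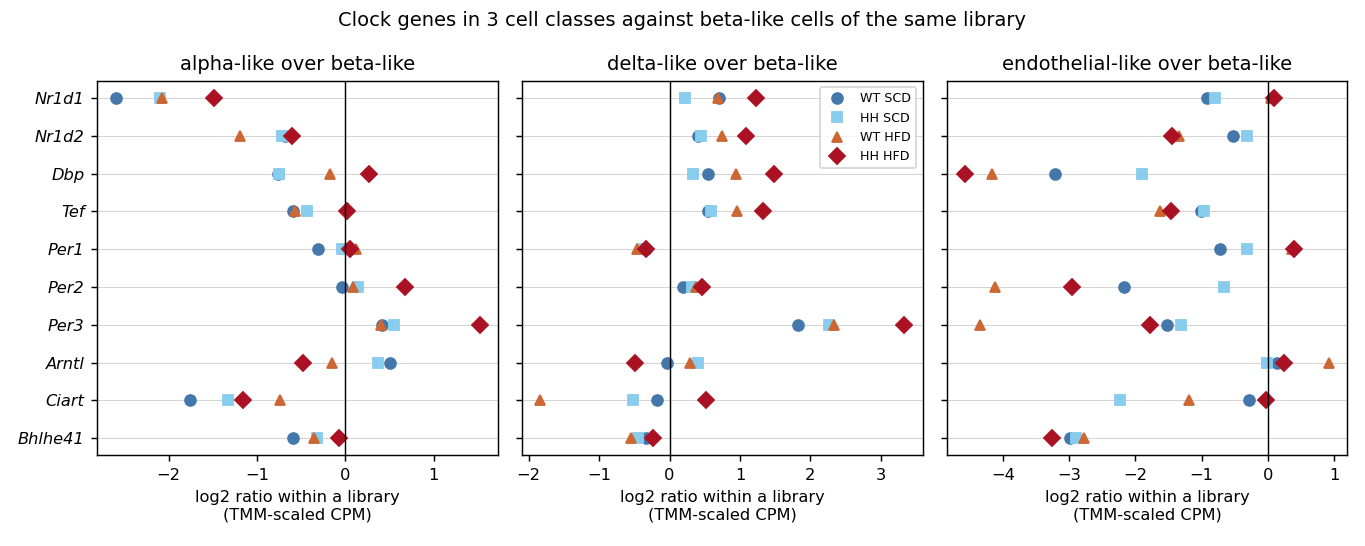
The log2 ratio of each member's TMM-scaled CPM in α-like, δ-like and endothelial-like cells over β-like cells of the same library, with 1 symbol per library and a line at 0. All 4 symbols of Per3 lie to the right of 0 in δ-like cells and all 4 of Nr1d1 to the left in α-like cells, where the Per3 symbol of Pax4 HH HFD (1.52) stands apart.

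Of 20 other clock genes from a fixed list, 19 were tested. In α-like cells 6 were higher and 6 lower, in δ-like cells 6 and 3, and in endothelial-like cells 7 and 8 (values are log2 fold changes on the TMM scale). Of all tested genes 25.8% were higher and 28.4% lower in α-like, 26.7% and 27.5% in δ-like and 33.6% and 41.2% in endothelial-like cells, so passing was common outside this list too and nothing is read from the counts. Hlf, the third PAR-domain activator beside Dbp and Tef, was higher by 1.95 on the log2 scale in α-like and by 2.79 in δ-like cells, and Wee1, a cell cycle kinase under clock control, by 1.99 and 1.43. Cry1, a repressor that works with PER, was higher by 0.72 and 0.84. Bhlhe40 (DEC1), the paralog of Bhlhe41, had a log2 fold change of -2.01 in α-like and 4.94 in endothelial-like cells, whereas Bhlhe41 was lower in endothelial-like cells. Cry2 was lower there, with a log2 fold change of -3.99. Csnk1e, a kinase of the PER proteins, was higher in all 3 (1.07, 1.01 and 2.12), as was Arntl2, the paralog of Arntl (1.80, 1.55 and 1.73), and Clock was lower in all 3 on this scale (-0.23, -0.41 and -0.75) and higher on plain CPM (0.37, 0.57 and 0.38). The rest past the threshold in α-like cells were Btrc (0.59), Npas2 (-1.40), Fbxl21 (-1.23), Nampt (-0.57) and Cry2 (-0.31). In δ-like cells they were Timeless (1.78), Nfil3 (-0.71) and Por (-0.51). In endothelial-like cells they were Timeless (6.77), Nampt (0.80), Csnk1d (0.77), Gsk3b (0.20), Usp2 (-1.79), Btrc (-1.27), Por (-1.14), Nfil3 (-1.02) and Rora (-0.83), and Fbxl21, a ligase of the CRY proteins, with no UMI there and 0.980 to 1.33 CPM in β-like cells. Nampt and Cry2 in α-like, Nfil3 and Por in δ-like, and Nfil3, Por and Rora in endothelial-like cells had the opposite direction on plain CPM.

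HFD libraries were compared with SCD libraries within each genotype. The 2 comparisons use different libraries, but each library also enters a comparison of the genotypes. A ratio was counted as past the fold where it was at least 0.5 on the log2 scale, its interval did not include 0 and the gene had at least 30 UMIs over both libraries. The cells compared were mostly from different clusters. Clusters 0, 1 and 3 held most SCD β-like cells, and clusters 2, 5 and 15 most HFD β-like cells, with α-like cells mostly in cluster 4 on SCD and cluster 16 on HFD.

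Nr1d1 was lower on HFD in nearly every cell type. In β-like cells it read 48.7 and 45.2 CPM in the SCD libraries and 11.6 and 6.95 CPM in the HFD libraries, a 4.22-fold lower level in Pax4 WT (log2 ratio -2.08, interval -2.23 to -1.92) and a 6.50-fold lower level in Pax4 HH (-2.70, -2.85 to -2.56). PP-like cells read 59.0, 56.6, 11.3 and 11.6 CPM, endothelial-like cells 50.3, 57.9, 26.1 and 18.1 CPM, and pericyte-like cells 232, 279, 72.9 and 63.8 CPM from 7 to 18 UMIs. The HFD libraries were below the SCD libraries in each of these classes, and in the α-like and δ-like cells given above. For Nr1d1, both HFD libraries were below both SCD libraries in 9 of the 11 named classes with cells in all 4 libraries, and for Nr1d2 also in 9 of 11. Among all genes with at least 30 UMIs over these classes and libraries, 0.329% did so in at least 9 of 11 classes. The cut of 9 was the count of Nr1d1 itself. A gene with few UMIs can hardly be lower in so many classes, so this share depends on abundance. Some of these classes held few cells, such as Schwann-like cells with 2 to 4 cells and 0 to 1 Nr1d2 UMIs per library. Over the classes in which the gene had at least 30 UMIs in all, it was 8 of 8 for Nr1d1, 5 of 5 for Nr1d2, 4 of 4 for Per2, 4 of 5 each for Dbp and Tef, 3 of 4 for Bhlhe41, 4 of 6 for Arntl, 5 of 10 for Per1, 2 of 3 for Ciart and 1 of 4 for Per3. With no UMI minimum the count was 7 of 11 for Per2, 6 for Dbp, 5 each for Tef, Per1 and Arntl, 3 each for Per3 and Bhlhe41 and 2 for Ciart. The share of all genes was taken only for the count of at least 9 of 11 classes. All classes share the same 4 libraries, so nothing is read from the other counts.

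**Figure D2:**
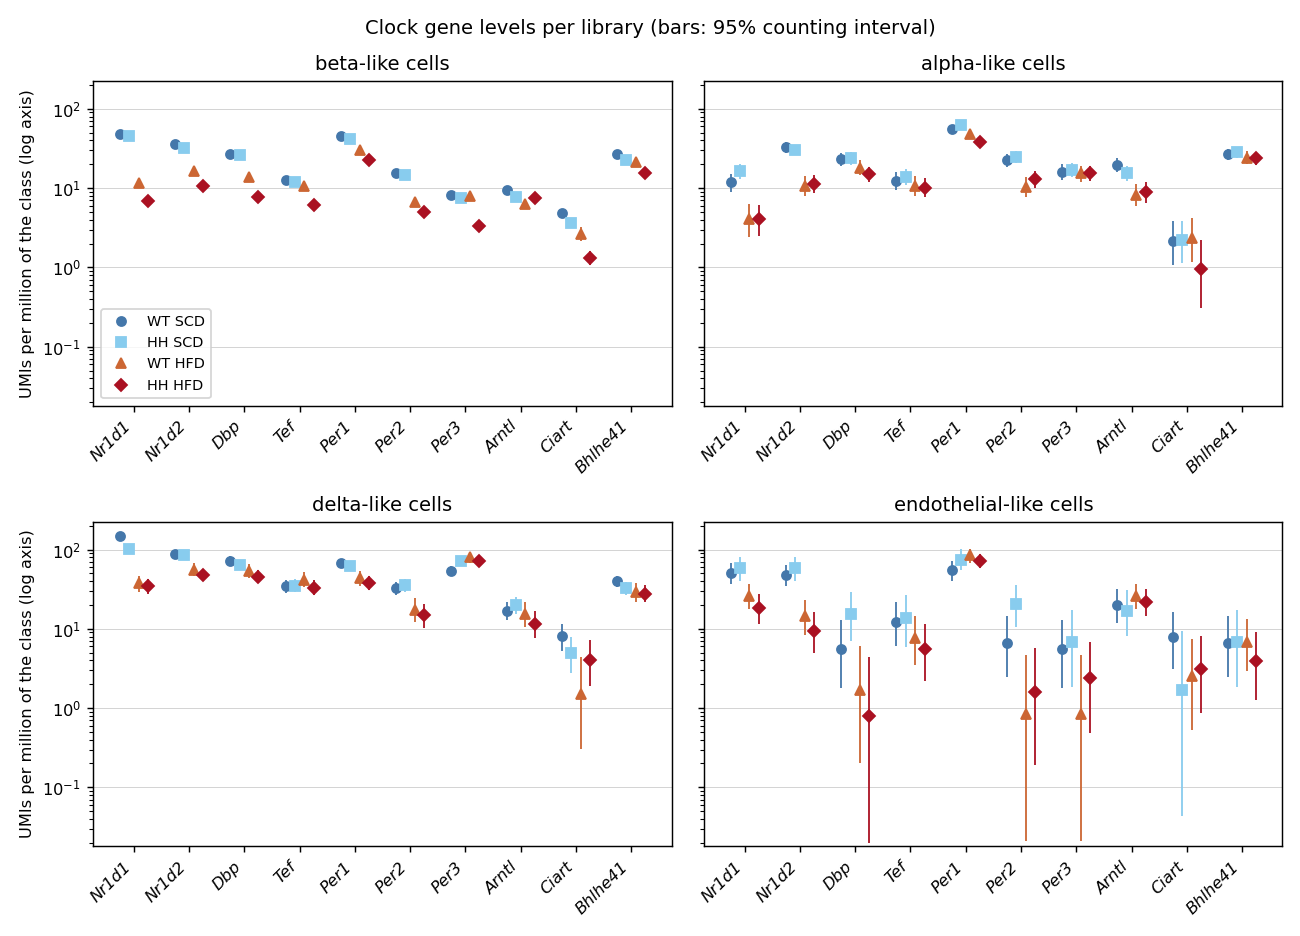
Levels of the 10 members in CPM of the class, on a log axis, for β-like, α-like, δ-like and endothelial-like cells, with 1 symbol per library and bars for the 95% counting interval. Nr1d1 and Nr1d2 sit lower in both HFD libraries in all 4 panels, and Per3 in β-like cells is low in Pax4 HH HFD alone (3.30 CPM).

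In Pax4 WT β-like cells 7 of 10 members were past the fold and lower on HFD, against 7.27% of all genes. These were Nr1d1, Nr1d2 (log2 ratio -1.10), Dbp (-0.95), Per1 (-0.62), Per2 (-1.22), Arntl (-0.57) and Ciart (-0.88). Per3 read 8.19 CPM on SCD and 7.86 on HFD, a log2 ratio of -0.06 (interval -0.28 to 0.16), and Tef had a log2 ratio of -0.25. In Pax4 HH β-like cells 9 of 10 were lower on HFD, against 11.2% of all genes, with Per3 (-1.20), Tef (-0.95), Dbp (-1.76) and Bhlhe41 (-0.57) among them. Arntl was the exception, at 7.74 and 7.61 CPM, a log2 ratio of -0.02 (interval -0.21 to 0.17).

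The other endocrine classes held fewer UMIs, and Ciart was under the UMI minimum in most of them. In α-like cells 4 of 9 tested members were lower on HFD in Pax4 WT (9.53% of all genes), namely Nr1d1 (-1.55), Nr1d2 (-1.62), Per2 (-1.10) and Arntl (-1.24), and 6 of 9 in Pax4 HH (8.99%), where Dbp (-0.66) and Per1 (-0.74) joined them. Arntl read 19.6, 15.4, 8.30 and 8.83 CPM in α-like cells, so in this class it was low in the same libraries as Nr1d1. In δ-like cells 5 of 10 were lower in Pax4 WT (5.12%), and Per3 was higher by 0.57 (interval 0.25 to 0.88; 8% of all genes were higher), whereas 5 of 9 were lower in Pax4 HH (6.06%) and Per3 had a log2 ratio of -0.01. PP-like cells had Nr1d1 (-2.39) and Per2 (-1.67) lower in Pax4 WT (2.84%), and Nr1d1 (-2.29), Nr1d2 (-0.79), Dbp (-1.41) and Per2 (-1.96) lower in Pax4 HH (4.13%). In endothelial-like cells 4 members could be tested, and Nr1d1 (-0.94 and -1.68) and Nr1d2 (-1.75 and -2.61) were lower in Pax4 WT (9.96%) and Pax4 HH (8.06%). Per1, which also responds to hormones and cAMP, read 54.8, 74.9, 84.3 and 72.5 CPM in endothelial-like cells, and its ratio in Pax4 WT was 0.62 (interval 0.12 to 1.15; 14% of all genes were higher).

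The genotypes were then compared within a diet. On SCD no member was past the fold in β-like cells (3.27% of all genes were, in either direction) or α-like cells (2.95%). In β-like cells log2 ratios of Pax4 HH over Pax4 WT ran from -0.44 for Ciart (interval -0.72 to -0.17) to -0.05 for Dbp (-0.16 to 0.06), and the median of all genes was -0.09. In δ-like cells Nr1d1 was lower in Pax4 HH (-0.51, interval -0.72 to -0.31; 3.55% of all genes past the fold in either direction), with 146 and 102 CPM.

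On HFD 6 of the 10 members were lower in Pax4 HH than in Pax4 WT β-like cells, against 6.36% of all genes. Cluster 15 held 1284 of the 2764 Pax4 HH and 26 of the 1123 Pax4 WT β-like cells on HFD. Without it, an alternative chosen after seeing the data, the count was 3, since Nr1d1, Nr1d2 and Tef were no longer past the fold. Of all genes 4.70% were then past the fold in either direction, and the share lower alone was not taken. Per3 had the lowest ratio, 7.86 CPM in Pax4 WT and 3.30 CPM in Pax4 HH, a 2.38-fold lower level (log2 ratio -1.25, interval -1.51 to -0.99). Ciart (-1.01), Dbp (-0.86, interval -1.04 to -0.67), Tef (-0.79), Nr1d1 (-0.73, interval -0.93 to -0.54) and Nr1d2 (-0.65) were the others. Per1, Per2 and Bhlhe41 had log2 ratios of -0.40, -0.41 and -0.45, whose intervals also lay below 0. Without cluster 15 Per1 had -0.03 (interval -0.16 to 0.10) and Per2 -0.23 (-0.52 to 0.06), and Bhlhe41 had -0.28 (-0.44 to -0.12). With cluster 15 included, Arntl was the only member with a ratio above 0 in β-like cells, 6.28 and 7.61 CPM (0.28, interval 0.04 to 0.51). The median of all genes was -0.15.

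No member was past the fold between the same HFD libraries in α-like (3.52% of all genes, either direction), δ-like (4.31%), PP-like (5.55%) or endothelial-like cells (7.15%). Per3 read 15.3 and 15.4 CPM in α-like cells, a log2 ratio of 0.00 (interval -0.47 to 0.48), and 79.7 and 70.9 CPM in δ-like cells (-0.17, -0.48 to 0.15). The ratio in β-like cells was set against that in each other class, with a Wald interval of the difference. For Per3 the difference was -1.25 against α-like (interval -1.78 to -0.73), -1.08 against δ-like (-1.48 to -0.68) and -1.30 against PP-like cells (-2.29 to -0.32). Intervals of the difference lay below 0 for 6 of 10 members against α-like cells (Nr1d2, Dbp, Tef, Per2, Per3 and Bhlhe41; 13.4% of all genes), for 4 of 9 against δ-like cells (Nr1d1, Nr1d2, Dbp and Per3; 7.72%), for 1 of 9 against PP-like cells (4.23%) and for 0 of 6 against endothelial-like cells (11.5%), among genes with at least 5 UMIs in each of the 4 sums. Between the genotypes on SCD the same counts were 2 of 10 against α-like (8.36%), 1 of 10 against δ-like (7.98%), 1 of 9 against PP-like (4.94%) and 1 of 7 against endothelial-like cells (8.25%). Without cluster 15 the counts on HFD were 1 of 10 against α-like (5.82%), 1 of 9 against δ-like (3.53%), 0 of 9 against PP-like (2.06%) and 0 of 6 against endothelial-like cells (6.47%). The member left below 0 was Per3, with a difference of -0.92 against α-like (interval -1.47 to -0.38) and -0.75 against δ-like cells (-1.18 to -0.32). Without cluster 15 the intervals of Per1 against α-like (0.30, 0.0006 to 0.61) and Arntl against δ-like cells (0.78, 5.1e-05 to 1.55) lay just above 0. The share of all genes above 0 was not taken. With cluster 15 included, the difference of Nr1d1 against α-like cells was -0.73 with an interval of -1.64 to 0.19, from 19 and 21 UMIs in α-like cells.

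**Figure D3:**
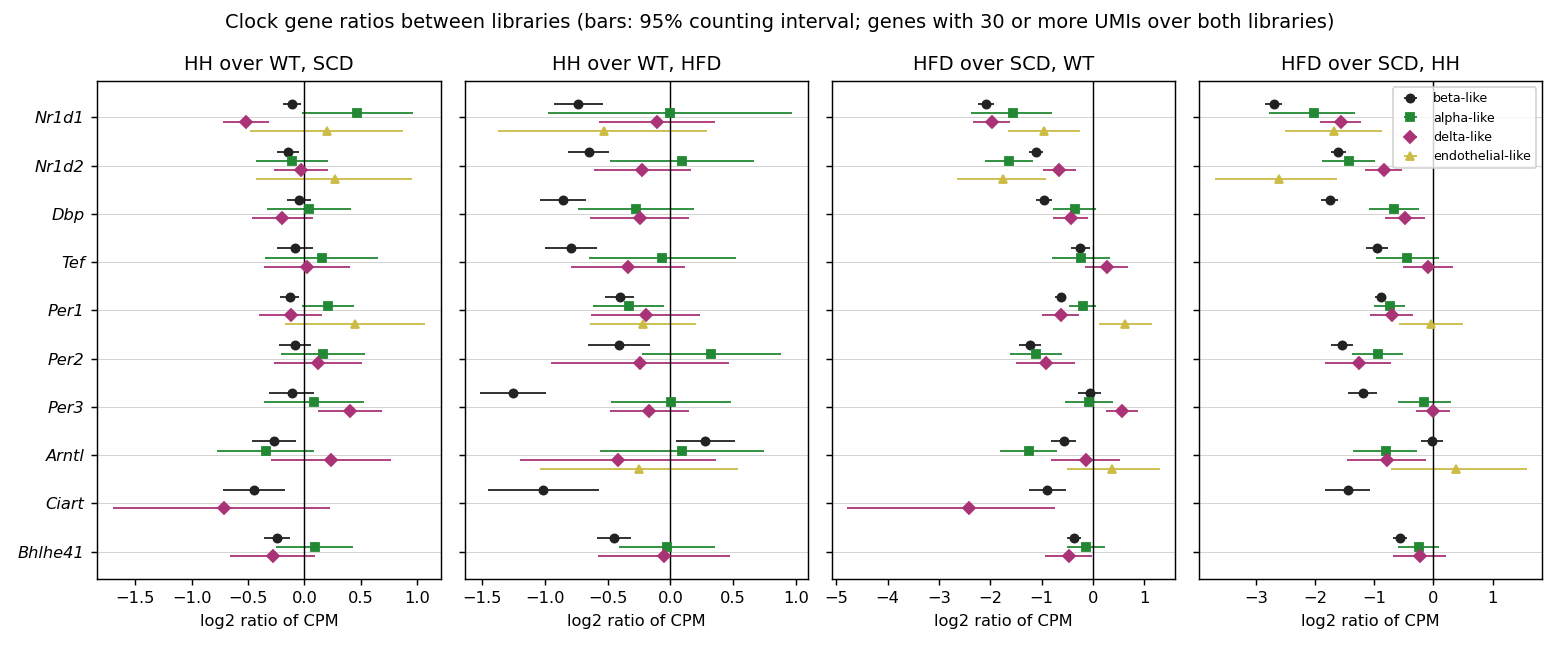
Log2 ratios of CPM between libraries for the members, in 1 panel per comparison and 1 symbol per cell class, with bars for the 95% counting interval and only genes with 30 or more UMIs over both libraries. In the panel of Pax4 HH over Pax4 WT on HFD the β-like symbols lie left of 0 for every member but Arntl (0.28), and in the panels of HFD over SCD Nr1d1 lies left of 0 in each class.

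The clock balance was taken as the log2 ratio of the summed UMIs of Nr1d1, Nr1d2, Dbp, Tef, Per3 and Ciart, whose transcripts peak at similar clock times, to the UMIs of Arntl. It needs no scaling for depth, since both sums come from the same cells. In β-like cells it was 3.87, 4.03, 3.33 and 2.24, which is 14.7, 16.3, 10.1 and 4.73 UMIs of those 6 genes for each Arntl UMI. The SCD libraries were near each other (difference 0.16, interval -0.04 to 0.35), and Pax4 HH was lower than Pax4 WT on HFD (-1.09, -1.34 to -0.84). From SCD to HFD the balance was lower by a log2 difference of -0.54 in Pax4 WT (-0.79 to -0.29) and -1.79 in Pax4 HH (-1.99 to -1.59).

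Other classes of the same libraries gave other balances. In α-like cells it was 2.33, 2.74, 2.88 and 2.69, with every interval of a change between libraries including 0. δ-like cells had 4.58, 4.19, 4.13 and 4.35 and PP-like cells 3.09, 3.17, 2.29 and 2.48, again with every such interval including 0. The sum can stay near while its members move apart. In Pax4 WT δ-like cells Nr1d1 had a log2 ratio of HFD over SCD of -1.97 and Per3 of 0.57. Nr1d1 UMIs for each Arntl UMI were 8.66, 5.15, 2.42 and 3.00 in δ-like, 4.68, 4.28, 1.06 and 1.38 in PP-like and 0.60, 1.06, 0.49 and 0.46 in α-like cells, given without intervals. In endothelial-like cells it was 2.69, 3.17, 1.02 and 0.84, a change from SCD to HFD of -1.66 in Pax4 WT (-2.70 to -0.65) and -2.33 in Pax4 HH (-3.65 to -1.10), and of -0.19 between the genotypes on HFD (-1.17 to 0.80). The change between the genotypes on HFD was lower in β-like than in α-like cells by -0.90 (interval -1.60 to -0.19), than in δ-like cells by -1.31 (-2.10 to -0.53) and than in PP-like cells by -1.28 (-2.34 to -0.23), and the difference from endothelial-like cells was -0.90 (-1.85 to 0.04). Without cluster 15 these differences were -0.56 against α-like (-1.28 to 0.16), -0.98 against δ-like (-1.78 to -0.18), -0.95 against PP-like (-2.01 to 0.12) and -0.57 against endothelial-like cells (-1.52 to 0.39), so only that against δ-like cells kept an interval below 0. All classes of a library came from the same pool of islets. The part of collection time in the differences between libraries was not tested.

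**Figure D4:**
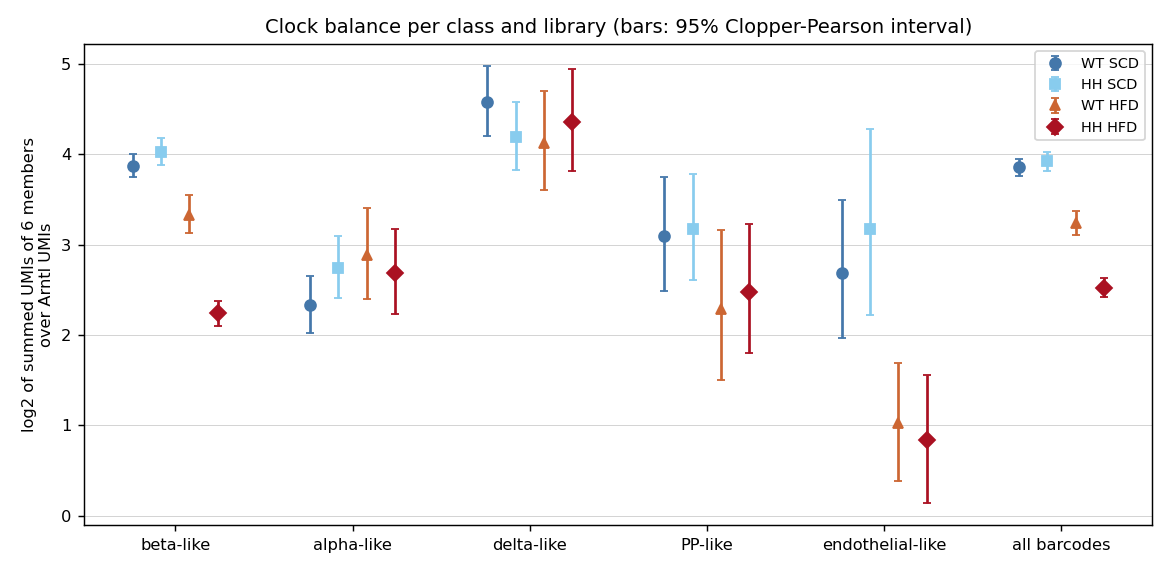
The clock balance, the log2 of summed UMIs of 6 members over Arntl UMIs, for 5 cell classes and all barcodes, with 1 symbol per library and bars for the 95% Clopper-Pearson interval. β-like cells of Pax4 HH HFD (2.24) sit below the other 3 libraries, whereas α-like and δ-like symbols overlap in their intervals and both HFD libraries are low in endothelial-like cells.

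β-like cells were not uniform. Cluster 15, of 1321 cells with 1284 from Pax4 HH HFD, was led by Dapl1, Serpina7, Rgs2, Fkbp11 and Gc, and cluster 5, of 1693 cells, came from both HFD libraries (535 and 1054 cells). The clusters were found without the clock genes, but on the same cells, so the values are a description with no test. Within the Pax4 HH HFD library Nr1d1 read 3.55 CPM in cluster 15 and 9.20 CPM in cluster 5, a log2 ratio of -1.37. Ciart (-1.24), Tef (-0.91), Nr1d2 (-0.73) and Per1 (-0.72) were also past the fold and lower in cluster 15, 5 of 10 members against 8.95% of all genes in either direction, and Arntl had a ratio of -0.15 (interval -0.43 to 0.12).

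Between the genotypes on HFD, cluster 5 had log2 ratios of -0.12 for Nr1d1 (interval -0.42 to 0.18), -0.33 for Nr1d2, -0.63 for Dbp and -0.90 for Per3, with 0.52 for Arntl (0.15 to 0.89). In cluster 2, with 290 and 189 cells, Per3 and Dbp were again lower in Pax4 HH (-0.87 and -0.53), whereas Nr1d2 was 0.49. In cluster 6, with 83 and 152 cells, Per3 had -0.67 (interval -1.39 to 0.05), Dbp 0.18 (-0.48 to 0.85) and Arntl -0.70 (-1.54 to 0.12), so Dbp and Arntl had the opposite sign to cluster 5 there, with intervals that include 0. When cluster 15 was left out of all β-like cells, 3 of 10 members stayed past the fold between the genotypes on HFD, Per3 (-0.92), Dbp (-0.60) and Ciart (-0.51; 4.70% of all genes in either direction), and the log2 ratio of Nr1d1 was -0.12 (interval -0.33 to 0.09). The balance then differed by -0.755 (interval -1.045 to -0.466). The difference between the diets for Nr1d1 in Pax4 HH was -2.07 without cluster 15. In cluster 1, with 364 Pax4 WT SCD and 149 Pax4 WT HFD cells, Nr1d1 read 37.9 and 20.4 CPM, a log2 ratio of -0.90 (interval -1.27 to -0.54). Per2 (-1.02) and Arntl (-1.08) were also lower on HFD there, Per3 (1.18) and Tef (0.65) were higher, and the other intervals included 0. Cluster 6, with 126, 122, 83 and 152 cells, held β-like cells of all 4 libraries. Its Nr1d1 level was 67.2, 75.2, 13.4 and 15.6 CPM, a log2 ratio of HFD over SCD of -2.33 in Pax4 WT and -2.27 in Pax4 HH. Pax4 HH over Pax4 WT was 0.22 on HFD in that cluster (interval -0.49 to 0.95, from 44 and 29 UMIs). Nr1d1 was thus apart between the diets there, and the interval between the genotypes included 0 and was wide.

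**Figure D5:**
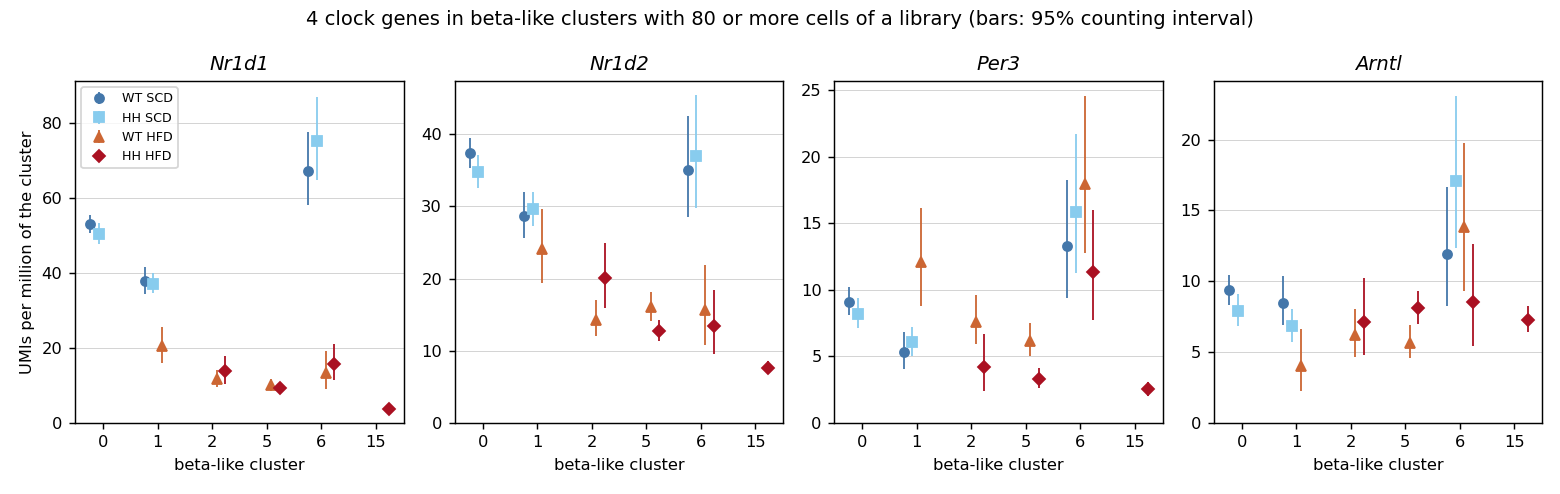
Levels of Nr1d1, Nr1d2, Per3 and Arntl in CPM of a cluster, for β-like clusters with at least 80 cells of a library, with 1 symbol per library and bars for the 95% counting interval. Nr1d1 is lowest in cluster 15 (3.55 CPM), and in cluster 6 the SCD symbols (67.2 and 75.2 CPM) lie above the HFD symbols (13.4 and 15.6 CPM).

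The same 20 other clock genes were measured between the libraries. In β-like cells Usp2, a deubiquitinase with a strong daily rhythm, had log2 ratios of HFD over SCD of -2.74 in Pax4 WT and -2.32 in Pax4 HH, and Wee1 of -1.84 and -1.73. Hlf had -1.05 and -1.62, Nfil3 (E4BP4), the repressor that competes at D-boxes, -1.28 and -1.45, and Cry1 -0.73 and -0.66. Bhlhe40 had -1.14 and -0.75, and past the fold in Pax4 WT alone was Rora (-0.57), in Pax4 HH alone Nampt (-0.54) and Timeless (1.23). Of the 7 other genes that share the members' phase, 4 were past the fold and lower in Pax4 WT (7.27% of all genes) and 5 in Pax4 HH (11.2%). Of the 4 that share Arntl's phase or act with it, 2 were lower in Pax4 WT (7.27%), and in Pax4 HH 2 were lower (11.2%) and 1 higher, namely Npas2, a CLOCK paralog (0.55; 7.19% of all genes were higher). Between the genotypes on HFD Hlf was lower (-0.91), as was Nampt (-0.51), and Npas2 (0.67) was higher in Pax4 HH β-like cells, against 3.05% of all genes that were higher. On SCD Bhlhe40 was lower in Pax4 HH in β-like (-0.66) and α-like cells (-1.86). In α-like cells Usp2 had -1.80 and -2.66 between the diets, Wee1 -0.86 and -1.19, Cry1 -0.73 and -0.58 and Hlf -0.54 and -0.91, with Rora (-0.66) and Nampt (-0.53) in Pax4 WT alone and Nfil3 (-0.51) and Por (0.57) in Pax4 HH alone. In δ-like cells Nfil3 had -0.999 and -1.58, Wee1 -1.02 and -1.62, Usp2 -1.20 and -1.07, Cry1 -0.70 and -0.88 and Rora -0.58 and -0.54, with Por (0.66) in Pax4 WT alone, and Nfil3 was lower in Pax4 HH than in Pax4 WT on HFD (-0.70). In endothelial-like cells Bhlhe40 had -1.08 and -1.39, Csnk1d -1.01 and -0.97 and Rora -0.85 and -1.08, with Nampt (-0.85) in Pax4 WT alone.

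Genes that respond to handling, cAMP, glucocorticoids and temperature can also move Per1 and other members, so their lists were measured in the same cells. Of 12 immediate early genes, 10 were lower in Pax4 HH than in Pax4 WT β-like cells on HFD (median log2 ratio -0.67; 6.36% of all genes were lower), among them Nr4a1 (-1.13) and Fosb (-0.86). From SCD to HFD 6 were lower (7.27% of all genes) and 1 higher (4.85%) in Pax4 WT β-like cells (median -0.45), and 10 were lower in Pax4 HH (median -1.13; 11.2%). In α-like cells 8 of the 12 were higher on HFD in each genotype (medians 0.999 and 1.02; 6.08% and 6.76% of all genes were higher), with 1 and 2 lower. In δ-like cells 9 were higher on HFD in Pax4 WT (median 1.04; 8%), with Fos at 2.68, and 9 were lower in Pax4 HH than in Pax4 WT on HFD (median -0.58; 2.97%). Of 6 heat shock genes 3 were lower in Pax4 HH than in Pax4 WT β-like cells on HFD (median -1.005; 6.36%). Both cold-inducible genes, Cirbp and Rbm3, were lower on HFD in β-like cells of each genotype (Cirbp -0.74 and -1.14; 7.27% and 11.2%). All 5 cAMP-responsive genes were lower on HFD in endothelial-like cells of each genotype (medians -1.32 and -1.46; 9.96% and 8.06%). Of 6 glucocorticoid-responsive genes, 5 were tested in β-like cells, and 3 were lower on HFD in Pax4 WT (7.27%) and 2 in Pax4 HH (11.2%). Log2 ratios of the immediate early genes in β-like cells ran from -3.20 to -0.07 between the diets in Pax4 HH. The part of these responses in the members' values was not tested.

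Genes that varied like the members were sought over 16 values, the 4 libraries in β-like, α-like, δ-like and endothelial-like cells, each centred on its class on the log2 CPM scale. Among 4699 genes with at least 100 UMIs in each class over the 4 libraries, those most correlated with the mean of the members other than Arntl were Hnrnpf, Egr3, March7, Actb and Zfp622 (Pearson's r 0.970 to 0.977), and the most opposite were Tmed3, Cnpy2, Commd3, Gnptg and Lgals3bp (-0.977 to -0.950). Against the mean of the others without itself, Nr1d2 had 0.95, Nr1d1 0.85 and Per1 0.48, and the other members had too few UMIs for this list. The 16 values share 4 libraries, and the correlations are a description.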

How the data were processed

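Islet cells of 4 groups, 1 library each, were sequenced with a droplet 3′ kit, and the authors deposited filtered matrices of UMI counts per gene and barcode, made with Cell Ranger 6.0 on GRCm38 (mm10) and not normalised. The members and gene lists were chosen with earlier results of these data known.

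Barcodes with under 10% mitochondrial UMIs, 3000 to 50000 UMIs and 2000 to 5000 genes were kept, and the cells with the highest Scrublet doublet scores were removed at an assumed rate of 0.8% per 1000 cells (348 cells). The libraries were clustered together in scanpy 1.11.5 (Leiden resolution 1, 3000 variable genes without the clock genes, 30 components, 20 neighbours). A cluster was named when at least 3 markers of a type were detected and led over other types. A condition that a marker reach 0.25 of its highest cluster was set after seeing the data, and the β-like name of cluster 3 (220 cells, 186 of them Pax4 WT SCD) rests on it. A cycling cluster of 122 cells stayed unnamed.

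Counts were summed per class and library. Ratios between libraries carry exact conditional binomial intervals, levels exact Poisson intervals, and a count of 0 was set to a floor of 3 counts for a ratio. Intervals cover counting error only and not the spread between mice. Cell classes were compared with edgeR 4.0.16 in R 4.3.3 (TMM, filterByExpr, library as a block, threshold 0.05), since the 4 classes of a library share its mice. Classes come from clustering of these same counts, without the clock genes. Alternatives were DESeq2 1.42.0, other scalings, cell filters, doublets kept, Leiden resolution 2, fold thresholds of 0.25 and 1, UMI minima of 10 and 100, ambient subtraction (2.75% to 6.15% of endothelial-like UMIs) and leaving out each library. Scripts were tested on simulated data. All members were named, and other clock genes where they passed the fold or the test. Some genes of the list of other clock genes are not reported here and are in no count of it.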

Additional observations from a re-analysis of the deposited data

Results flagged for a closer look

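Arntl in β-like cells had log2 ratios of Pax4 HH over Pax4 WT in opposite directions on the diets, 0.277 on HFD and -0.27 on SCD, each with an interval that did not include 0. With 1 library per group the difference was not tested. Per1 between the diets in Pax4 WT had a log2 ratio of 0.622 in endothelial-like cells and -0.621 in β-like cells, each with an interval that did not include 0, and this difference was not tested between libraries either. In Pax4 HH the ratios of Per1 were -0.05 in endothelial-like and -0.89 in β-like cells, so the opposite directions were seen in Pax4 WT only.

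Per3 in α-like over β-like cells was 1.52 on the log2 scale in Pax4 HH HFD, where the median of the other 3 libraries was 0.417, and its level in α-like cells was 15.4 CPM there against 15.3 to 17.1 CPM in the other 3. Per3 in endothelial-like over β-like cells was -4.35 in Pax4 WT HFD, where the median of the others was -1.52, from 1 UMI in the endothelial-like cells. These 2 were found among 30 sets of 4 values, and chance sets apart about 1 in 20 such sets.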

How the results depend on the processing

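No member that passed the test between cell types (20 of 30), no log2 ratio whose interval excluded 0 (45 of 80, in β-like and α-like cells) and no balance change whose interval excluded 0 changed direction under the alternatives run, apart from the directions on plain CPM given for the cell classes. Of the rest, 13 of 35 ratios and 4 of 10 class differences took both signs, the latter Per1 in α-like (-0.10 to 0.04) and endothelial-like cells (-0.17 to 0.18) and Arntl in α-like (-0.06 to 0.30) and δ-like cells (-0.10 to 0.20). Of the balance changes 54 kept their value within counting error and 2 moved, both without cluster 15, to -0.755 for Pax4 HH over Pax4 WT on HFD and -1.424 for HFD over SCD in Pax4 HH β-like cells. The number of β-like members past the fold for Pax4 HH over Pax4 WT on HFD was 3 without cluster 15 (4.70% of all genes, in either direction), 10 at a log2 fold of 0.25 with Arntl higher and the others lower (29.3%) and 2 at a fold of 1 (2.90%), against 6 lower (9.41%). On SCD it was 2 at 0.25 (12.1%), and for HFD over SCD in Pax4 WT it was 3 at 1 (3.798%), against 7. In α-like cells it was 1 for Pax4 HH over Pax4 WT on SCD with the looser cell filter (3.17%), with doublets kept (3.02%) and with ambient RNA subtracted (3.44%), 1 on HFD at 0.25 (6.82%), and 2 for HFD over SCD in Pax4 HH at 1 (4.96%), against 6. The other 94 counts stayed within 1.5 times. Without cluster 15 the members whose β-like ratio between the genotypes on HFD lay below that of another class, interval included, were 1 for α-like (against 6), 1 for δ-like (against 4) and 0 for PP-like cells (against 1).

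The test across classes with no replicate block, that is without the library term, called 3 members in α-like cells (6 with it), 3 in δ-like cells (7 with it) and 5 in endothelial-like cells (7 with it). Of all genes it called 5805, 5927 and 9105 of 12548 in these classes, against 7005, 7003 and 9657 of 12907 with the term. Leaving out each library in turn gave 4 to 7, 6 to 7 and 6 to 7 members, the lowest α-like count without Pax4 WT SCD. Of the 13031 to 13155 genes tested in those fits, 5937 to 6623, 5947 to 6740 and 9149 to 9363 were called. The groups themselves hold 1 library each and no pairing across them was possible. For single members, 700 log2 ratios between libraries kept their value and 20 moved. Most of those that moved were β-like ratios without cluster 15. There all members but Per2 and Arntl moved, both between the genotypes on HFD and between the diets in Pax4 HH. Ciart, and Dbp, Per2 and Per3 in endothelial-like cells, had few UMIs, which limits the precision of their values.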
